A study of Mus musculus with 2 samples.

Results

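Pf4, Itga2b, Gp1bb, Gp9, Gp5, Cavin2, Treml1, Plek and Vwf are genes of the megakaryocyte and its product, the platelet. These 9 genes, of 32285 features in the count matrices, were taken by name and followed in 2 single-cell libraries, over all cells, in groups of cells set apart by other marker genes, and in the cells that carried stem cell markers. All 9 were detected in both libraries. The libraries held bone marrow Lin-Sca-1+c-Kit+ (LSK) cells, the fraction that contains hematopoietic stem cells and multipotent progenitors. They came from B6 mice aged 8 to 10 weeks with an SCLtTA/BCR-ABL transgene, which drives the leukemia oncogene BCR-ABL from the SCL promoter once tetracycline is withdrawn, and the cells were taken 2 weeks after induction. The miR-142 WT CML library kept the miR-142 gene, and in the miR-142 KO CML library it was knocked out on both alleles (hereafter WT and KO). BCR-ABL was thus shared by both libraries, so no comparison with cells free of the oncogene was made. The comparison asks how loss of the microRNA changes the stem and progenitor compartment of this chronic myeloid leukemia model. With 1 library per group, and the number of mice behind each not given in the sources used here, there was no replicate error and no test: every interval below is a 95% interval for counting error only, and a difference between libraries cannot be told apart from one between animals or preparations.

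Megakaryocytes arise in the marrow from stem cells through progenitors shared with the erythroid lineage, under the hormone thrombopoietin and the transcription factors GATA1, FLI1 and RUNX1. They fill granules with adhesive proteins and chemokines and place receptors for von Willebrand factor and fibrinogen on their surface, which platelets then use to seal vessel walls. Some stem cells already carry transcripts of this program, and VWF is the usual mark of such platelet-biased stem cells. ITGA2B, also known as CD41, is present on mast cells and early progenitors too.

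The sequences of the microRNA that separates the libraries are shown because they set what a direct match in a listed gene would look like. RefSeq places both mature arms on chromosome 11 of GRCm38.p6, miR-142a-3p at chr11:87756903-87756925 and miR-142a-5p at chr11:87756867-87756887, on the plus strand. Capitals mark the seed, bases 2 to 8.
mmu-miR-142a-3p: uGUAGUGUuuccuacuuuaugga
mmu-miR-142a-5p: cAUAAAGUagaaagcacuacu
The complement of the 3p seed, ACACTAC, was in the sequence after the stop codon of 0 of the 9 genes, against 6.05% of 20848 annotated genes. The complement of the 5p seed, ACTTTAT, was there in 1 of the 9, Plek, against 14.4% of those genes. The sequence after the stop codon was 2944 bases long in Plek and 123 to 1538 bases long in the other 8, where the median over all genes was 967. The Plek match starts 1544 bases after the stop codon and is shown with the match in capitals.
Plek site: actatactccaatctACTTTATatatattt
A match of letters is a description and not a working site. The host transcript of the microRNA, Mir142hg, gave 1260 UMIs (9.12 CPM, UMIs scaled to equal totals) in WT and 20 UMIs (0.126 CPM) in KO, as the labels have it.

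Cells were barcodes with at least 8000 UMIs (molecules counted once by their molecular identifier) and under 10% mitochondrial UMIs. This left 5363 WT cells (median 19443 UMIs) and 5458 KO cells (median 24182 UMIs), and 4 barcodes occurred in both. Each cell was placed in a group by 7 lists of 10 marker genes that hold none of the 9 genes. The sort markers Kit, Ly6a and Cd34 were present at 86.4, 96.8 and 255 CPM in WT and 68.3, 153 and 199 CPM in KO. The composition of the libraries differed most in granule-high myeloid cells, which carry the neutrophil granule genes Elane and Mpo: they were 10.4% of WT cells and 35.4% of KO cells, and held 24.7% and 54.9% of all UMIs. HSC-like cells, with stem cell genes such as Hlf and Mecom, were 10% of WT cells (538) and 1.85% of KO cells (101). Megakaryocyte-like cells were rare in both, 12 WT cells (0.224%, interval 0.116 to 0.391%) and 23 KO cells (0.421%, interval 0.267 to 0.632%), and the difference of 0.198 percentage points was within its counting error of 0.228. In these cells 3 of the 10 megakaryocyte markers (Rab27b, Itgb3 and F2rl2) were raised in the summed counts. A marker needed at least 50 UMIs in the group to count, and all 10 together had 156 in WT and 216 in KO. The gate itself asked for 3 raised markers, so this is a description. Most cells, 63% in WT and 47.3% in KO, carried too few raised markers to be placed and are called ungated.

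Over all cells, 6 of the 9 genes were lower in KO and 3 were higher. The median log2 ratio of KO over WT was -0.45, where the median of all 14053 genes with at least 50 UMIs was -0.15. Gp5, Cavin2, Treml1 and Vwf were at least 1.5-fold lower, 4 of 9, where 17.3% of all genes were, and 0 of 9 were at least 1.5-fold higher, where 5.43% were. The libraries differ in cell make-up, and in summed counts fewer cells of a type and less RNA per cell cannot be told apart. When both libraries were weighted to the same mean share of each cell group, 6 of the 9 were higher in KO and the median ratio was 0.09. When granule-high myeloid cells were left out, an alternative chosen after seeing the data, the median was 0.25. At one composition Itga2b and Gp1bb were past 1.5-fold higher, where 5.16% of 14032 genes were, and Cavin2 and Vwf past 1.5-fold lower, where 9.75% were. Cavin2, Treml1 and Vwf were below 0 under all 10 alternatives run over all cells, and Pf4, Gp9 and Gp5 were not.

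**Figure D1:**
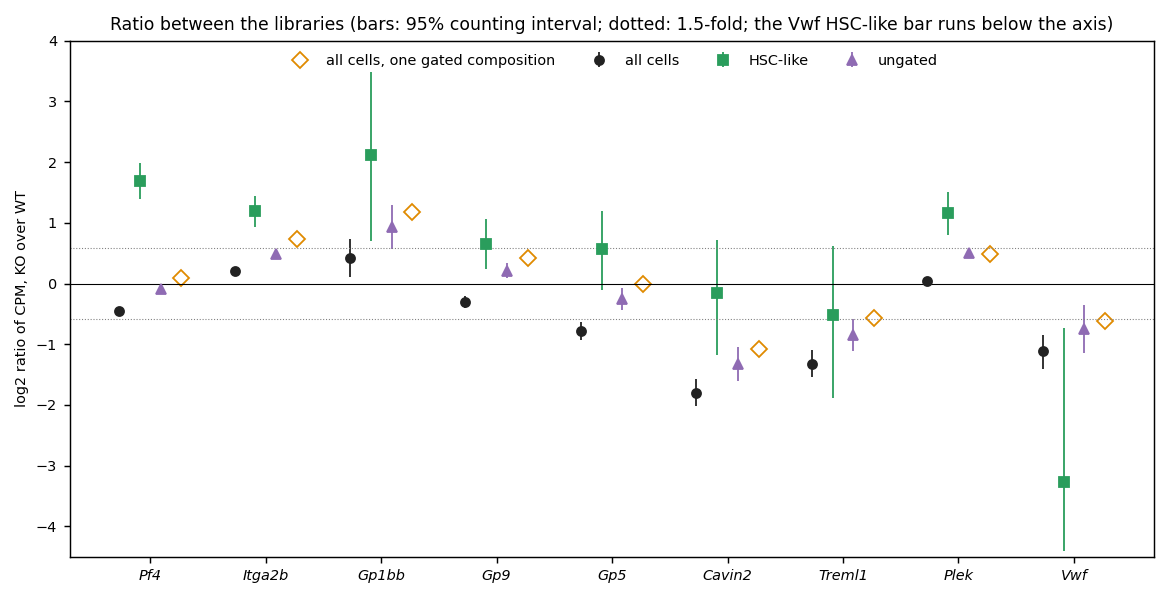
Log2 ratio of CPM, KO over WT, of each gene (x axis) in all cells (circles), HSC-like cells (squares), ungated cells (triangles) and all cells at one gated composition (open diamonds); bars are 95% counting intervals and dotted lines mark 1.5-fold. Cavin2, Treml1 and Vwf are below 0 in every series shown, Itga2b, Gp1bb and Plek are above 0 in every one, and Pf4, Gp9 and Gp5 change side.

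Pf4 encodes platelet factor 4, a chemokine of the platelet alpha granule (GRCm38, chromosome 5, 90772435 to 90773383, plus strand, 3 exons). WT held 4185 of its UMIs (30.3 CPM) and KO 3501 (22.1 CPM), and the log2 ratio of KO over WT was -0.45 (interval -0.52 to -0.39). The transcripts sat in very few cells. The 17 richest WT cells and the 13 richest KO cells held 50% or more of them, and 1 WT cell had 286 and 1 KO cell 425. By contrast, 425 WT and 382 KO cells were needed to hold the same part of the Itga2b transcripts, and 644 and 609 for Plek. In megakaryocyte-like cells Pf4 reached 2219 CPM in WT and 1643 CPM in KO, and in the granule-high myeloid cells, which should lack it, 1.41 and 1.28 CPM. After each cell was thinned to 8000 UMIs, 10.9% of WT cells had a Pf4 UMI (interval 10.1 to 11.8%), and 5.4% of KO cells did (interval 4.82 to 6.04%). Without thinning these were 17.6% and 9.53%. In granule-high myeloid cells the thinned shares were 1.44% and 0.829%, at median depths of 60573 and 44084 UMIs before thinning. Pf4 was thus seen in fewer KO cells. With the 1% of cells richest in the 9 genes left out, 54 in WT and 55 in KO, its ratio was -1.16, and at one gated composition it was 0.09.

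**Figure D2:**
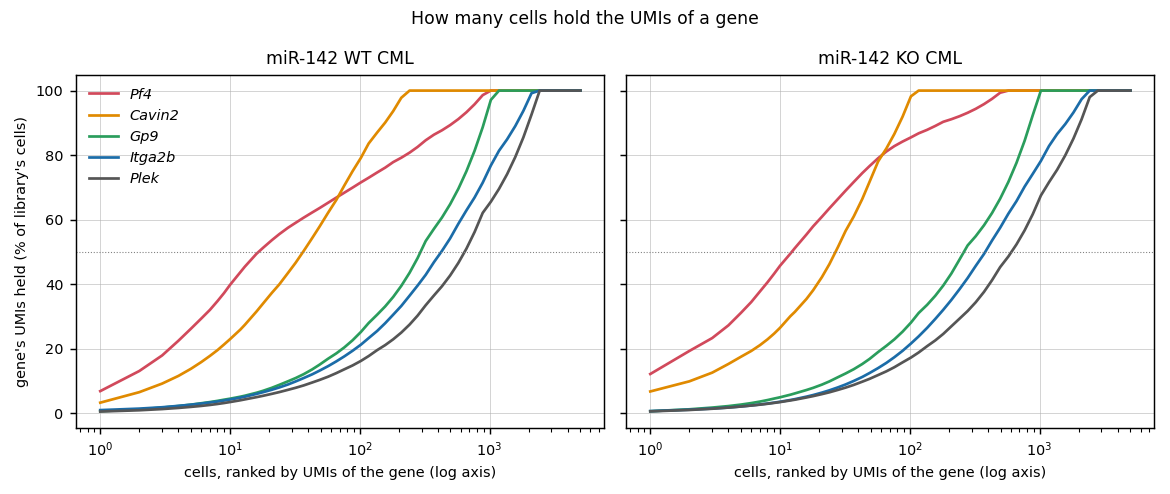
Percent of a gene's UMIs (y axis) held by the cells richest in it (x axis, number of cells, log axis) in WT (left) and KO (right). Pf4 passes 50% at 17 WT and 13 KO cells, Cavin2 at 37 and 27, Gp9 at 295 and 260, Itga2b at 425 and 382, and Plek at 644 and 609.

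The cells richest in Pf4 carried the rest of the program. Among the 10 richest cells of each library, every one had at least 7 of the 9 genes. Of these, 3 in each library were megakaryocyte-like, 6 WT and 4 KO cells were ungated, 1 KO cell was HSC-like and 1 innate lymphoid-like, and the richest cell of both libraries was in the basophil/mast-like group. That WT cell had 92 UMIs of Mcpt8 and 142 of Prss34, genes of basophils, among 59336 UMIs in all. That KO cell had 315 UMIs of the mast cell gene Cpa3 among 48443. The median depth of basophil/mast-like cells was 17325 UMIs in WT and 16102 in KO. Whether these barcodes held 1 or more cells was not tested. They carried most of the Pf4 of their group, 286 of 338 UMIs in WT and 425 of 459 in KO, and without them the group's Pf4 level went from 76.1 to 11.9 CPM in WT and from 80.3 to 6 CPM in KO.

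Itga2b encodes integrin alpha IIb, which pairs with integrin beta 3 as the platelet fibrinogen receptor (chromosome 11, 102453297 to 102470122, minus strand, 30 exons). WT held 5181 of its UMIs (37.5 CPM) and KO 6869 (43.4 CPM), and the log2 ratio was 0.21 (interval 0.16 to 0.26). In contrast to Pf4, it was broad, with a UMI in 26.2% of thinned WT cells and 26.7% of KO cells. Its level was highest in megakaryocyte-like cells, 314 CPM in WT and 613 CPM in KO, and next in basophil/mast-like cells of both libraries, 153 and 317 CPM. There 65% of WT cells had it after thinning (interval 58 to 71.6%) against 84.7% in KO (interval 80 to 88.7%), and the log2 ratio was 1.05 (interval 0.92 to 1.18). Within every group with at least 50 cells in both libraries the KO level was the higher, with ratios of 1.20 in HSC-like, 1.35 in granule-high myeloid, 1.03 in lymphoid-primed-like and 0.49 in ungated cells. Without basophil/mast-like cells, which were 3.79% of WT and 5.28% of KO cells, the ratio over the remaining cells was -0.02. The small difference over all cells thus stood beside larger ones within the groups. Gm23563 overlaps Itga2b on its strand.

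Plek encodes pleckstrin, the main protein kinase C substrate of platelets, which is also made in other blood cells (chromosome 11, 16971206 to 17052381, minus strand, 10 exons). It gave 4009 UMIs (29 CPM) in WT and 4748 (30 CPM) in KO, with a ratio of 0.05 (interval -0.01 to 0.11). Like Itga2b, it was high in basophil/mast-like cells, 116 and 151 CPM, and in megakaryocyte-like cells, 91.1 and 263 CPM. It was higher in KO within HSC-like (1.16), lymphoid-primed-like (0.57), basophil/mast-like (0.38) and ungated cells (0.50), each with an interval above 0. In granule-high myeloid cells it was 8.65 and 8.51 CPM (ratio -0.02, interval -0.22 to 0.18). Plek was the least particular to megakaryocyte-like cells of the genes for which this fold could be formed: its level there was 10.5 times that of granule-high myeloid cells in WT and 30.9 times in KO, against 1576 and 1288 times for Pf4. Plek shares its locus with Gm12014 and Cnrip1 on the other strand.

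**Figure D3:**
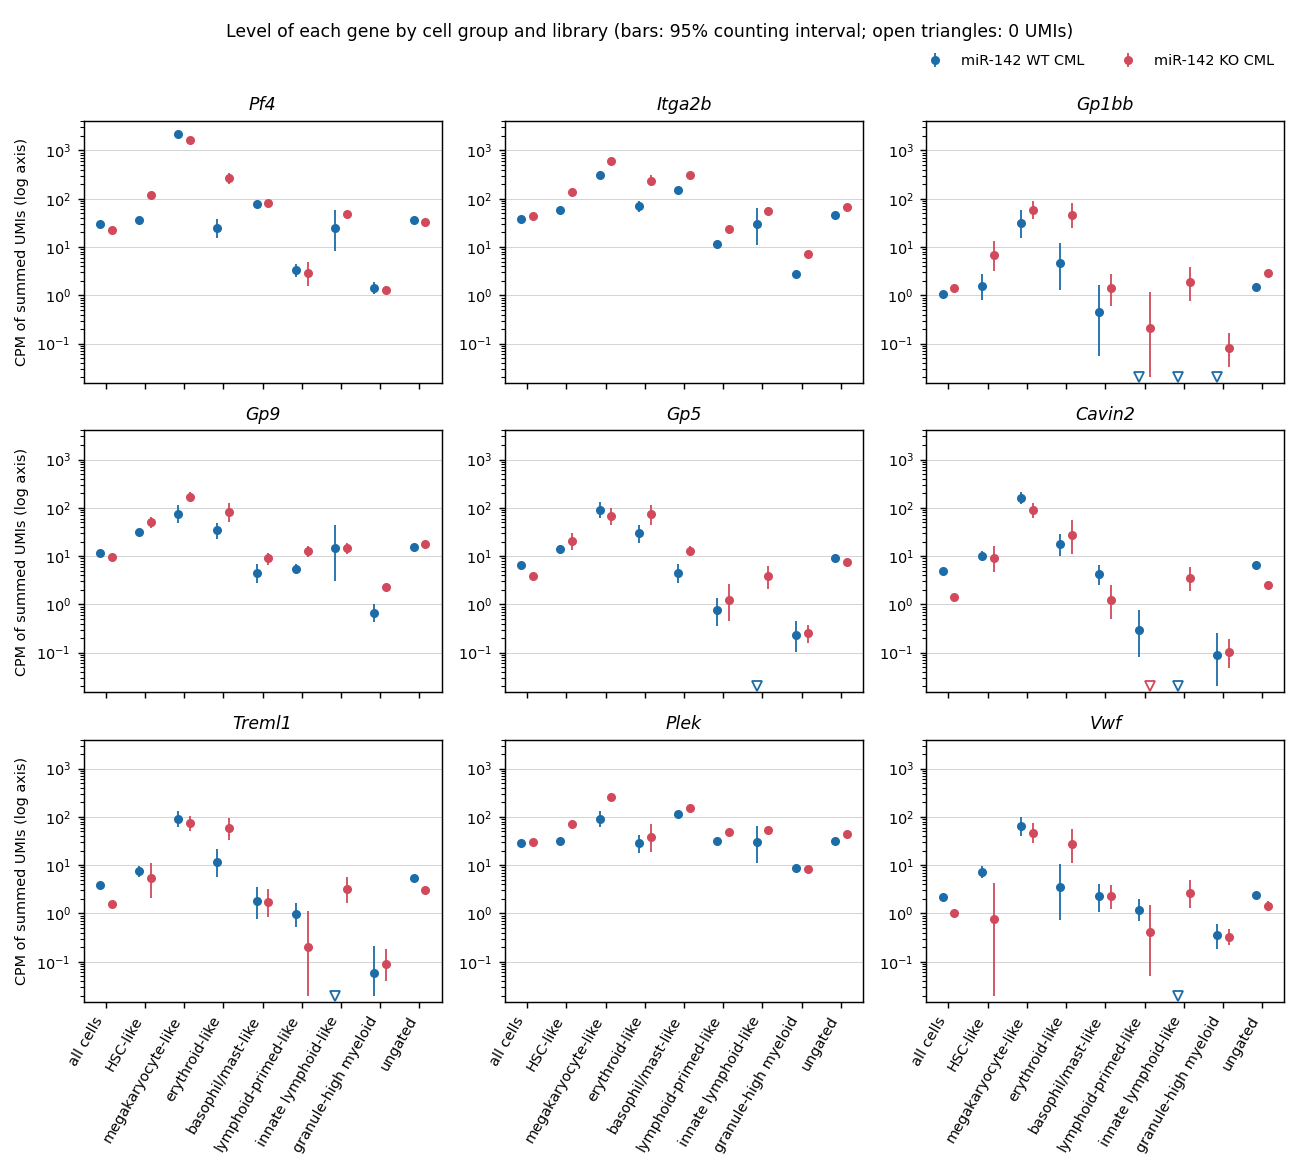
Level of each of the 9 genes (CPM of summed UMIs, log axis) in all cells and in each cell group, for WT and KO; bars are 95% counting intervals, cut at the foot of the axis, and open triangles mark 0 UMIs. The level is highest in megakaryocyte-like cells, except for WT Plek (91.1 CPM there and 116 CPM in basophil/mast-like cells) and KO Gp5 (67 CPM there and 74 CPM in erythroid-like cells).

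GP1BB, GP9 and GP5 are subunits of the glycoprotein Ib-IX-V complex, the platelet receptor for von Willebrand factor. Gp9 (chromosome 6, 87778072 to 87779768, plus strand, 2 exons) gave 1629 UMIs (11.8 CPM) in WT and 1504 (9.49 CPM) in KO, with a ratio of -0.31 (interval -0.41 to -0.21). Gp5 (chromosome 16, 30307685 to 30310779, minus strand, 2 exons) gave 907 UMIs (6.56 CPM) and 605 (3.82 CPM), a ratio of -0.78 (interval -0.93 to -0.63). Gp1bb (chromosome 16, 18620317 to 18622403, minus strand, 2 exons) gave only 146 UMIs (1.06 CPM) and 224 (1.41 CPM), a ratio of 0.42 (interval 0.11 to 0.73). The subunits of this receptor thus did not share a direction over all cells. Gp1bb lies on the strand of Sept5 and Gm49601, which overlap it, so reads of these genes could be shared or dropped and its counts are uncertain. At one gated composition the ratios were 0.42 for Gp9, 0.00 for Gp5 and 1.18 for Gp1bb. In basophil/mast-like cells Gp5 was 4.5 CPM in WT and 12.8 CPM in KO (ratio 1.5, interval 0.78 to 2.30), seen in 2.46% and 10.4% of the thinned cells, where granule-high myeloid cells showed 0 of 556 and 0.155%. For 0 of 556 cells the floor of 3 counts is 0.54% and the exact interval reaches 0.661%. Gp9 there was 4.5 and 8.92 CPM (ratio 0.99, interval 0.22 to 1.81).

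Promoter sequence was looked at because GATA and ETS factors drive this program. In the 250 bases before the RefSeq start, the GATA words, which are AGATAA or AGATAG and also TGATAA or else TGATAG, were searched on both strands, together with the ETS words, CCGGAAG and also CAGGAAG. An entry was held for 8 of the 9 genes, all but Vwf. A GATA word was in 2 of the 8, Gp5 and Gp1bb, against 26.5% of all 32851 promoters, and an ETS word was in 0 of 8, against 17%. Gp5 is shown as the gene with most matches, 3, in capitals (reverse matches read as TTATCT), for chr16:30310782-30311031 of GRCm38.p6, minus strand. Pf4 is shown beside it as a gene with no match, for chr5:90772185-90772434, plus strand.
Gp5: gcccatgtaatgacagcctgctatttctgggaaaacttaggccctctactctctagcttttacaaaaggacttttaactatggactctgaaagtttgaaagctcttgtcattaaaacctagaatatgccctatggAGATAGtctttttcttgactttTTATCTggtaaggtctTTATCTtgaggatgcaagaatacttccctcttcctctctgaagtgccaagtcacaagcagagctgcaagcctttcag
Pf4: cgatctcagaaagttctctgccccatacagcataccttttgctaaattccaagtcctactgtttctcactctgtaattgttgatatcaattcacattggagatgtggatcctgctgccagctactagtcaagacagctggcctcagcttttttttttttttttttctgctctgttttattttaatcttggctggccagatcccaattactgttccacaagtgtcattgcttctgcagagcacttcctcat
The matches start 115, 93 and 77 bases before the Gp5 start. Where none was found, these words are simply not in the window.

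Cavin2, Treml1 and Vwf were lower in KO under each weighting tried over all cells, but not within every cell group. Cavin2 encodes a caveola-associated membrane protein also called serum deprivation response (chromosome 1, 51289126 to 51302960, plus strand, 2 exons). It gave 676 UMIs (4.89 CPM) in WT and 223 (1.41 CPM) in KO, with a ratio of -1.80 (interval -2.02 to -1.58), and -1.08 at one gated composition. Treml1 encodes an alpha granule receptor that moves to the surface of activated platelets (chromosome 17, 48359916 to 48367176, plus strand, 6 exons), with 547 UMIs (3.96 CPM) and 251 (1.58 CPM), a ratio of -1.32 (interval -1.54 to -1.10), and -0.57 at one composition. Vwf encodes von Willebrand factor, the adhesive ligand of the Ib-IX-V receptor (chromosome 6, 125546774 to 125686679, plus strand, 52 exons), with 306 UMIs (2.21 CPM) and 162 (1.02 CPM), a ratio of -1.11 (interval -1.40 to -0.84), and -0.62 at one composition. These were also seen in few cells. After thinning, a Cavin2 UMI was in 2.67% of WT and 1.3% of KO cells, a Treml1 UMI in 3.75% and 1.61%, and a Vwf UMI in 2.33% and 0.971%. In granule-high myeloid cells the 3 shares were 0 to 0.36% in WT and 0.104 to 0.414% in KO. Among ungated cells alone the ratios were -1.33, -0.85 and -0.75, each with an interval below 0. In megakaryocyte-like cells they were -0.84 (interval -1.50 to -0.20), -0.29 (interval -1.08 to 0.50) and -0.49 (interval -1.46 to 0.48). Endothelial cells, another source of Vwf, were checked by 6 markers: their summed level was 2.47 CPM in WT and 3.97 CPM in KO, with Cdh5 at 11 UMIs in each library, Sox17 at 0 and 1, Flt4 at 13 and 7, Kdr at 132 and 62, Plvap at 155 and 227 and Stab2 at 31 and 321. Stab2 was also among the leading genes of innate lymphoid-like cells, which were 12 in WT and 176 in KO. The part of endothelial cells in the Vwf values was not tested. The 8 macrophage markers summed to 29.8 and 29.6 CPM. Cavin2 shares its locus with 9330175M20Rik on the other strand.

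**Figure D4:**
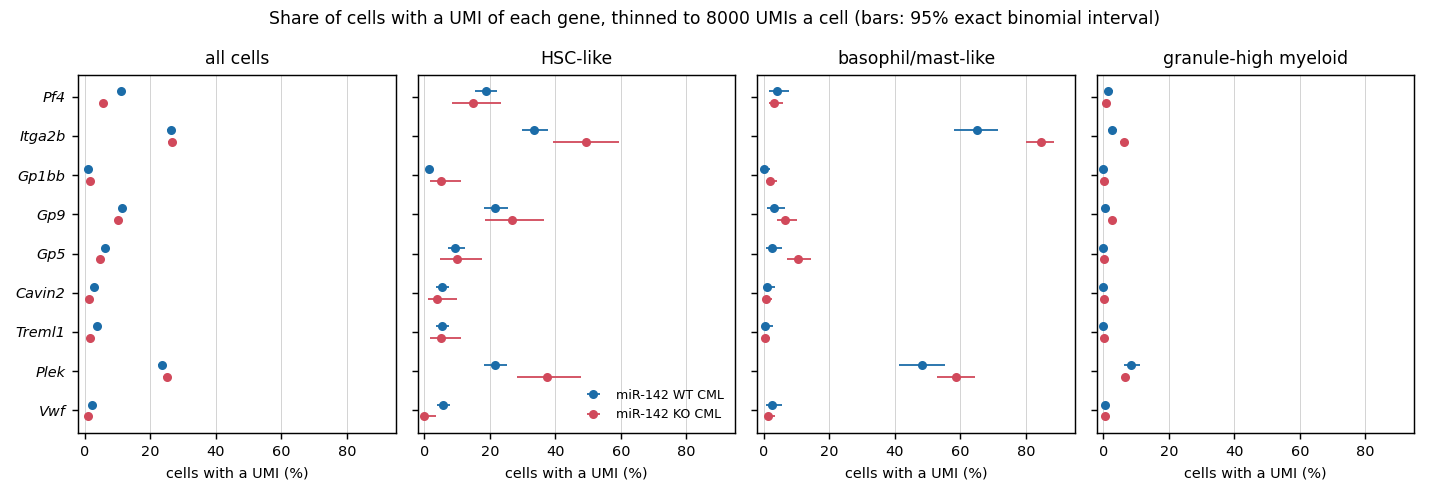
Percent of cells with at least 1 UMI of each gene, after thinning to 8000 UMIs a cell, in all cells and 3 cell groups; points are WT and KO and bars exact binomial 95% intervals. Granule-high myeloid cells, the background, stay at or below 8.45%, whereas Itga2b reaches 65% and 84.7% of basophil/mast-like cells and Vwf is at 5.58% and 0% of HSC-like cells.

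HSC-like cells were looked at apart from the rest. Of the 8 genes with at least 50 UMIs in them, Pf4, Itga2b, Gp9 and Plek were at least 1.5-fold higher in KO, where 4.52% of 9726 genes were, and Vwf was at least 1.5-fold lower, where 13.9% were. The median ratio over all 9 was 0.66, but it was 0.06 in HSC-like cells without a raised megakaryocyte marker and -0.69 in the HSC cluster of the joint data, and the value of Pf4 rested on 1 cell. HSC-like cells of the libraries were not alike in other respects. They sat mostly in 1 cluster of the joint data (328 of 538 WT and 59 of 101 KO cells). This was the HSC cluster, of 1398 WT and 1051 KO cells in all. However, 52 of the 538 WT and 19 of the 101 KO cells were in a cluster led by erythroid and megakaryocyte genes, among them Car1, Pf4 and Cavin2. Hlf was 281 CPM in WT and 139 in KO, Procr 45.5 and 18.2, and the summed granule list 881 and 1630 CPM. The part of these differences in the results was not tested.

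Itga2b was 59.2 CPM (453 UMIs) in WT HSC-like cells and 136 CPM (179 UMIs) in the KO ones, for a ratio of 1.20 (interval 0.94 to 1.45). Plek was 31.9 CPM (244 UMIs) and 71.4 CPM (94 UMIs), a ratio of 1.16 (interval 0.80 to 1.51). Both also had the larger thinned share in KO. Itga2b was seen in 33.6% (interval 29.7 to 37.8%) and 49.5% (interval 39.4 to 59.6%) of cells and Plek in 21.6% (interval 18.2 to 25.3%) and 37.6% (interval 28.2 to 47.8%). Granule-high myeloid cells showed Itga2b in 2.52% and 6.27%. Median depths of HSC-like cells before thinning were 11724 and 10980 UMIs. Gp9 was 31.8 and 50.1 CPM (ratio 0.66, interval 0.24 to 1.06), and its shares of 21.7% and 26.7% had overlapping intervals. Under the 8 other choices of gate, weight or cells that gave a value, Itga2b stayed between 0.65 and 1.32, Plek between 0.73 and 1.56 and Gp9 between 0.33 and 0.94.

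Pf4 in HSC-like cells rested on 1 cell. WT had 36.7 CPM (281 UMIs) and KO 118 CPM (156 UMIs), a ratio of 1.69 (interval 1.40 to 1.98), but 115 of the 156 KO UMIs were in a single cell. Without the richest cell of each library it was 34.1 and 31.7 CPM, a ratio of -0.10 (interval -0.62 to 0.38). The thinned shares, 18.8% (interval 15.6 to 22.3%) in WT and 14.9% (interval 8.56 to 23.3%) in KO, ran against the CPM, so no order was read. Itga2b and Plek were 1.14 and 0.98 without these cells.

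Vwf was the only one of the 9 with an interval below 0 in HSC-like cells. It gave 56 UMIs (7.32 CPM) in 538 WT cells and 1 UMI (0.759 CPM) in 101 KO cells, a ratio of -3.27 (interval -8.60 to -0.73). After thinning, 5.58% of the WT cells had it (interval 3.79 to 7.86%), against 0.36% of WT granule-high myeloid cells, and 0 of 101 KO cells did, where the floor of 3 counts is a share of 2.97% and the exact interval reaches 3.59%, both for cells with a UMI and not for cells that express the gene. The 1 KO UMI was in the cell that held most of the Pf4. With 2 raised markers in place of 3, a wider gate of 1033 and 253 cells, the UMIs were 98 and 4 and the ratio -2.45 (interval -4.35 to -1.05). In the HSC cluster of the joint data they were 57 and 5 and the ratio -3.11 (interval -4.78 to -1.80). That cluster had 1398 WT and 1051 KO cells, of which only 328 and 59 were HSC-like, so most of it lay outside the gate. In that cluster Cavin2 (-3.24, interval -6.36 to -1.24) and Treml1 (-3.33, interval -4.68 to -2.23) were lower too. HSC-like cells held 18.3% of all Vwf UMIs in WT and 0.617% in KO, beside 60.5% and 47.5% in ungated cells. Of the UMIs of all genes, HSC-like cells held 5.54% in WT and 0.831% in KO, and ungated cells 55.5% and 33.9%. Gp5 (13.9 and 20.5 CPM), Cavin2 (10.2 and 9.11 CPM) and Treml1 (7.58 and 5.32 CPM) had intervals that held 0. Gp1bb had 12 and 9 UMIs (ratio 2.12, interval 0.70 to 3.49). At least 1 raised megakaryocyte marker was carried by 31.6% of WT and 32.7% of KO HSC-like cells. In those without any, 368 and 68 cells, the ratios were 0.68 for Itga2b, 0.95 for Plek and 0.69 for Gp9.

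The genes were also counted per cell. After thinning, 479 of 5363 cells in WT (8.93%, interval 8.18 to 9.73%) and 410 of 5458 in KO (7.51%, interval 6.83 to 8.24%) had at least 3 of the 9 genes, and unthinned shares were 17.8% and 14.3%. Granule-high myeloid cells had 0 and 4 such cells, and without that group the shares were 9.96% and 11.5%, the other way round. At least 7 genes were seen in 9 WT cells (0.168%, interval 0.0768 to 0.318%) and 23 KO cells (0.421%, interval 0.267 to 0.632%), and the most in any cell was 8 in WT and 9 in KO. At least 5 genes were seen in 1.77% of WT and 1.69% of KO cells. The order of the libraries thus changed with the number of genes asked for, and the intervals at 7 or more overlapped. For 3 or more genes it also changed with the thinning and the cells used. Most of the cells with at least 3 genes were ungated, 76.8% in WT and 71.5% in KO. HSC-like cells made up 16.1% of them in WT and 4.63% in KO, and basophil/mast-like cells 1.67% and 10%. Of all cells, HSC-like cells were 10% in WT and 1.85% in KO, and basophil/mast-like cells 3.79% and 5.28%. Within HSC-like cells 14.3% in WT and 18.8% in KO had at least 3 genes, and within basophil/mast-like cells 3.94% and 14.2%. The genes were found together: of WT cells with Pf4, 52.2% had Itga2b, against 23% of cells without Pf4, and in KO 71.5% against 24.1%. Of KO cells with Vwf, 54.7% had Pf4, against 4.92% of the others, and in WT 28% against 10.5%. Plek was less tied to Pf4 in WT: 31.7% of cells with Pf4 had Plek, against 22.5% of the others, and in KO 53.2% against 23.5%. The others include granule-high myeloid cells, and the part of cell make-up in these contrasts was not tested.

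Genes that the count of 3 or more did not use were compared between these cells and the remaining cells of the same library, with 0.5 CPM added to both levels. Of all genes with at least 50 UMIs, 4.62% in WT and 10.7% in KO were at least 2-fold higher in them, and 4.03% and 3.23% at least 2-fold lower. The 6 other megakaryocyte markers with at least 50 UMIs were all at least 2-fold higher, in both libraries. These 6 are counted again below, in the lists of surface receptors and of granule and secreted genes. Of the transcription factors of the lineage, 8 of 13 in WT and 9 of 13 in KO were at least 2-fold higher, of the other surface receptors 9 of 13 and 12 of 13, of the granule and secreted genes 5 of 9 and 4 of 9, and of the cytoskeleton and signalling genes 4 of 9 and 5 of 9. Gata1 was 51.6 CPM against 4.56 in WT and 49.2 against 2.81 in KO. HSC markers were also higher, 7 of 10 in each library, as were erythroid markers, 4 of 7 in WT (1 was lower) and 5 of 5 in KO. The granule-high list was lower, 9 of 10 genes in WT and 10 of 10 in KO. The libraries differed in the basophil/mast list: 0 of 10 markers were at least 2-fold higher and 3 at least 2-fold lower in these cells in WT, and 8 of 10 were higher in KO. Cpa3 was 266 CPM against 480 in WT and 1774 against 618 in KO. Gata1 and Cpa3 were chosen after their values were seen. Median depth was 15523 UMIs in these WT cells and 13018 in KO, against 19954 and 25773 in the others.

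The other genes of the lineage, in 5 lists by role, were more often lower than higher in KO over all cells. Of 58 genes, 50 had at least 50 UMIs, 17 were at least 1.5-fold lower in KO (17.3% of all genes were) and 5 at least 1.5-fold higher (5.43% were), with a median ratio of -0.41. At one gated composition 31 were below 0 and 19 above, but past 1.5-fold 7 were lower (9.75% of all genes) and 7 higher (5.16%), and the median was -0.11, where that of 14032 genes was -0.09. All 13 transcription factors were below 0 over all cells, also with size factors, and 6 were past 1.5-fold, but at one composition 10 were below 0 and 1 was past it. Those with most UMIs were Lmo2 (450 and 383 CPM), Mef2c (197 and 151), Runx1 (92.7 and 81.2) and Etv6 (84.7 and 65.3). The list of thrombopoietin signalling also held Angpt1, which encodes the ligand of another receptor. Angpt1 was lower past 1.5-fold, at 90.3 and 42.6 CPM, and at one composition its ratio was -0.33. Stat5a (32.6 and 28.8 CPM), Sh2b3 (14.9 and 16.2) and Jak2 (14.4 and 10.7) were not past it.

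Surface receptors and granule genes went both ways. Of 13 receptors, 4 were lower and 1 higher past 1.5-fold, where 17.3% and 5.43% of all genes were. At one gated composition 2 were lower and 4 higher, where 9.75% and 5.16% of all genes were. Cd9 was 88.1 and 92.1 CPM, Selp (P-selectin) 21.3 and 28.4, F2r (a thrombin receptor) 24.8 and 17.9, and Pear1 14 and 7.88. Gp1ba, the partner of Gp1bb, was 1.09 and 1.93 CPM (ratio 0.83, interval 0.54 to 1.12) and Itgb3, the partner of Itga2b, 4.77 and 7.08 CPM (ratio 0.57, interval 0.43 to 0.71), and at one composition they were 1.11 and 0.84. Of 10 granule and secreted genes, 5 were lower and 3 higher, and at one composition 3 were lower and 3 higher. Srgn was 1470 and 2677 CPM, F13a1 69.4 and 153, Clu 4.65 and 17.9, and Nbeal2 12.9 and 12.6. These first 3 are also genes of myeloid or other cells. Mmrn1, a carrier protein of the alpha granule, was 5.39 and 0.593 CPM (ratio -3.18, interval -3.51 to -2.87), and -2.40 at one composition. Of 9 cytoskeleton and signalling genes 0 were lower and 1, Rasgrp2 (123 and 196 CPM), was higher, 0.44 at one composition, while Fermt3 (171 and 166), Tln1 (165 and 149) and Rap1b (155 and 152) were within 1.5-fold. Gp1ba, Itgb3 and Mmrn1 were chosen after their values were seen.

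In HSC-like cells 40 of the 58 genes had at least 50 UMIs, 8 were higher past 1.5-fold (4.52% of all genes were) and 6 lower (13.9% were), and the median was -0.04, where that of all genes was -0.08. Itgb3 was 10.6 and 29.6 CPM (ratio 1.48, interval 0.89 to 2.05) beside Itga2b, and Rap1b, a small GTPase that switches on that integrin, 145 and 282 CPM (ratio 0.96, interval 0.79 to 1.13). Mmrn1 was 26.7 and 3.04 CPM (204 and 4 UMIs) beside Vwf, a ratio of -3.13 (interval -5.02 to -1.76). The lists were chosen with earlier results of these data known, and Rap1b is among the genes with most UMIs of its list.

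**Figure D5:**
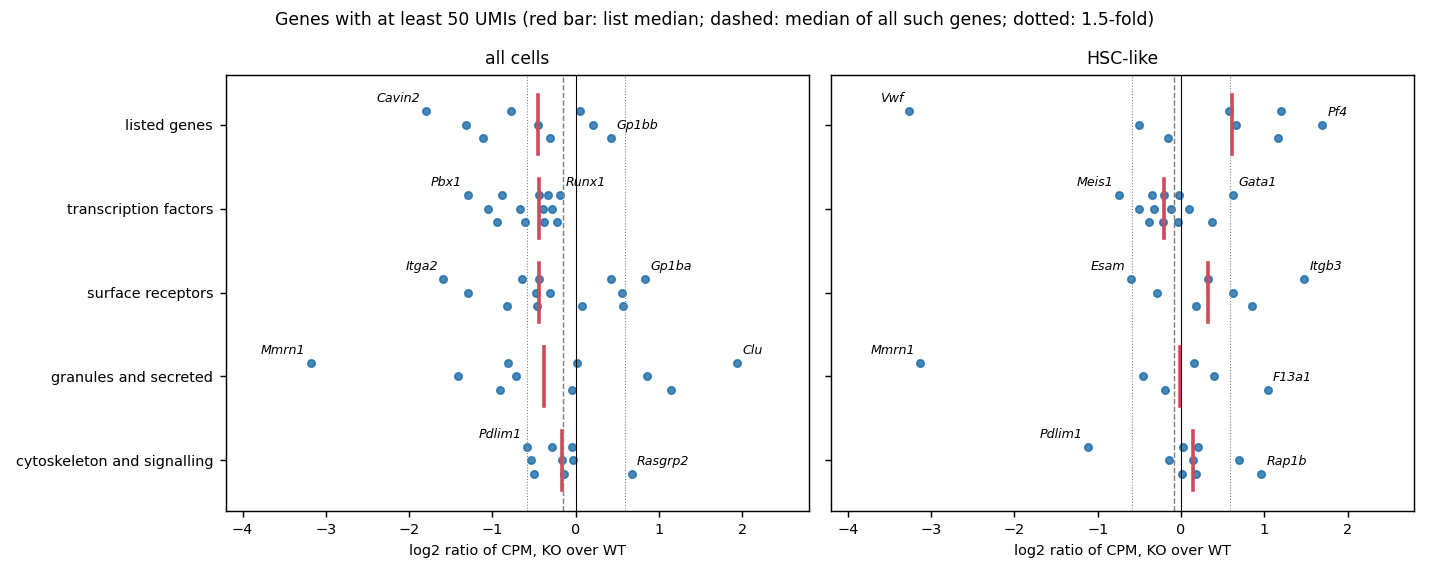
Log2 ratio of CPM, KO over WT (x axis), of the 9 genes and of 4 lists of other megakaryocyte and platelet genes, over all cells (left) and in HSC-like cells (right); each point is a gene with at least 50 UMIs, red bars are list medians, the dashed line is the median of all such genes and dotted lines mark 1.5-fold. Over all cells the medians of the listed genes and 3 of the 4 other lists lie between -0.45 and -0.38, and in HSC-like cells Vwf and Mmrn1 stand at -3.27 and -3.13.

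Over the 5 groups with at least 50 cells in both libraries, which with 2 libraries give 10 points, the 10 other genes most like the mean of the 9 were Apoe (r = 0.99), Fgf3 (0.98), Pde4a (0.98), Col18a1 (0.97), Rbpms2 (0.96), Galnt1, Tmcc2, Pdzk1ip1, Sdsl and Foxd2os (0.94 each), by Pearson correlation of log2(CPM + 1). Megakaryocyte-like, erythroid-like, innate lymphoid-like and mixed cells were too few to enter. The Pf4 level of basophil/mast-like cells rested mostly on 1 cell per library. Without that cell, 76.1 CPM became 11.9 in WT and 80.3 CPM became 6 in KO. The points share libraries and depth, and Pdzk1ip1 was itself a marker of the HSC-like gate, so this is a description only. Among the 9, Cavin2 and Treml1 were most alike (r = 0.95), followed by Pf4 with Itga2b and Pf4 with Gp5 (0.94 each), and Gp1bb and Vwf were least alike (0.29).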

How the data were processed

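Single-cell 3′ libraries were made from sorted LSK cells on the 10x Chromium platform. The authors deposited, for each library, an unfiltered matrix of whole UMI counts per barcode and gene (Cell Ranger 6.1.2 and mm10 by the submitters' processing notes). The header of the matrices gives another Cell Ranger release, so the version is uncertain. Barcodes with at least 8000 UMIs and under 10% mitochondrial UMIs were kept, which left 80.9% of WT and 84.4% of KO UMIs (138183896 and 158438757). Doublets were not called, and an alternative left out the 5% of barcodes with most UMIs. The study's own minimum of 300 UMIs was another alternative.

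A marker was raised in a cell, thinned to 8000 UMIs, at 2 times its mean over all cells. A cell went to the list with most raised markers, at least 3 (ties are called mixed), among the HSC, megakaryocyte, erythroid, basophil/mast, granule-high myeloid, lymphoid-primed and innate lymphoid lists. Macrophage and endothelial lists gave levels only. Counts were summed per group and scaled to CPM. Intervals are exact: Poisson for levels, conditional binomial for ratios and Clopper-Pearson for shares, at 95%. With 1 library per group no test was made. Genes with at least 50 UMIs over both libraries in the same cells counted towards the 1.5-fold threshold. The floor of a share is 3 counts. Named were the 9 genes, up to 4 genes per pathway list with most UMIs, and the 10 genes most like the mean of the 9. Other named genes are marked as chosen later, and 1 gene of the lists is not reported here. The members and lists were chosen with earlier results of these data known.

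Alternatives were another UMI minimum, median-of-ratios size factors, one gated composition, subtraction of free RNA (barcodes under 100 UMIs, 1879895 in WT and 2000126 in KO, at 5% of UMIs), other gates and Leiden clusters (resolution 0.5, 30 components, 20 neighbours) of the joint data. Positions and transcripts are from GENCODE M21 (GRCm38), promoters and microRNAs from RefSeq (GRCm38.p6). Python 3.11.15, NumPy 2.4.6, SciPy 1.17.1, pandas 2.3.3, scikit-learn 1.9.0 and leidenalg 0.10.2 were used, and the ratios and thinning were tested on simulated data.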

Additional observations from a re-analysis of the deposited data

Results flagged for a closer look

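Among the groups set by a marker list, the KO over WT ratio went opposite ways, with intervals on opposite sides of 0, in 3 pairs. Ungated and mixed cells were left out of this count. With ungated cells there were more such pairs, for instance Treml1 at -0.85 in ungated and 2.31 in erythroid-like cells (10 WT and 15 KO UMIs). These differences were not tested, since there was 1 library per group. For Pf4 the log2 ratio was 1.69 in HSC-like and -0.43 in megakaryocyte-like cells, a difference of 2.12, and the first value rests on 1 KO cell. For Pf4 in megakaryocyte-like against erythroid-like cells (3.42, from 21 UMIs in 33 WT and 68 UMIs in 15 KO cells) the difference was -3.85. For Vwf it was -3.27 in HSC-like and 2.94 in erythroid-like cells (3 and 7 UMIs), a difference of -6.21.

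Barcodes under the minimum of 8000 UMIs, used only in the alternative that took all barcodes over 300 UMIs, held some rich in the 9 genes: 4 WT and 1 KO barcodes had at least 1% of their UMIs from them, as did 1 cell above the minimum in each library. The richest had 33 of 406 UMIs in WT (8.13%) and 50 of 495 in KO (10.1%), of which 21 and 38 were Pf4. That KO barcode carried 38 of the 40 Pf4 UMIs found in the 388 KO barcodes with over 300 and at most 1000 UMIs.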

How the results depend on the processing

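With 1 library per group no replicate could be left out, so the main limits were cell make-up, the few cells that hold Pf4 and the 101 KO HSC-like cells. No paired analysis was possible because the labels give no replicate numbers. Over all cells the median ratio of -0.45 was -0.57 at a minimum of 16000 UMIs, -0.31 with size factors (a shift of 0.15 for every gene), and 0.09 at one gated composition. Alternatives chosen after seeing the data gave -0.18 with every cell weighted equally, -0.84 without the 1% of cells richest in the 9 genes, -0.53 without basophil/mast-like and 0.25 without granule-high myeloid cells. Single genes that changed side were Plek, whose interval held 0 (-0.22 at 16000 UMIs and -0.04 without basophil/mast-like cells), Itga2b (-0.08 at 16000 UMIs and -0.02 without basophil/mast-like cells), Pf4 (0.09), Gp9 (0.42) and Gp5 (0.00) at one composition, and Pf4 (0.26) and Gp9 (0.25) without granule-high myeloid cells. The count of genes past the fold was 3 to 5 under the alternatives run, though at one composition it was 2 higher and 2 lower.

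In HSC-like cells the median of 0.66 was 0.06 without cells with a raised megakaryocyte marker and -0.69 in the HSC cluster. Pf4 was -0.61 with 4 or more raised markers, -0.23 without Hlf in the list, -0.44 without cells with a raised megakaryocyte marker, -0.69 in the HSC cluster and -0.77 without the 5 richest cells, and Gp1bb was -1.60 in the HSC cluster. Where KO had 0 UMIs of a gene no ratio was formed.

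The difference in megakaryocyte-like cells was 0.334 percentage points with 2 raised markers and -0.00162 with 4, within its counting error both times, and no Leiden cluster was named megakaryocyte. The difference in cells with 3 or more genes, -1.42 percentage points, was 0.0669 thinned to 4000 UMIs, -3.5 unthinned, -3.32 for 2 or more genes without Plek and Vwf, 1.12 over all barcodes above 300 UMIs, -3.18 at 16000 UMIs and 1.55 without granule-high myeloid cells. Of 156 single-gene values, 95 stayed within their counting interval, 48 moved beyond it and 13 changed side from an interval without 0; the cause was not tested.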

Other observations

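The Leiden cluster whose leading genes were Car1, Cavin2, Pf4, Gp1bb and Treml1 was left unnamed, since erythroid and megakaryocyte genes led it together. It had 446 WT and 283 KO cells and held 67.5% of Pf4 UMIs in WT and 68.6% in KO, 89.7% and 82.1% for Gp1bb, and 86.1% and 86.5% for Cavin2, but 35% and 26.5% for Itga2b and 14.2% and 13.7% for Plek. It took in 11 of 12 WT and 23 of 23 KO megakaryocyte-like cells and 28 of 33 and 15 of 15 erythroid-like cells. Within it the Pf4 level of WT was 313 CPM and that of KO 533 CPM, a ratio on the log2 scale of 0.77 (interval 0.69 to 0.85). Itga2b was 201 and 404 CPM (1.01), Gp1bb 14.5 and 40.8 CPM (1.49) and Plek 62.9 and 144 CPM (1.20), whereas Cavin2 was 64.5 and 42.8 CPM (-0.59, interval -0.83 to -0.35). Vwf, at 15.1 and 19.3 CPM (0.36, interval -0.05 to 0.76), was not lower there. Neither was Treml1, at 39.7 and 43.5 CPM (0.13, interval -0.13 to 0.39), of which the cluster held 65.4% of UMIs in WT and 78.1% in KO. Gp9 (0.50, interval 0.33 to 0.67) and Gp5 (0.24, interval 0.05 to 0.44) were higher in KO. These genes helped to form the cluster, so the values are a description, with no test.

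Free RNA, read from barcodes under 100 UMIs, held Pf4 at 35.5 (WT) and 23 CPM (KO), Plek at 22 CPM in both and Cavin2 at 2.49 and 0.56 CPM. Granule-high myeloid cells held Pf4 at 3.97% and 5.55% of that free level, but Plek at 39.4% and 38.8%.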
